A study of Homo sapiens with 4 samples.

Results

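The genes described here are 10 genes whose products write, copy, erase or bind repressive marks on chromatin: the DNA methyltransferase genes DNMT1, DNMT3A and DNMT3B, the maintenance factor gene UHRF1, the genes EZH2, SUZ12 and EED of Polycomb repressive complex 2 (PRC2), and the 5-methylcytosine dioxygenase genes TET1, TET2 and TET3. They were taken by name, as every probe set that the platform annotation lists for exactly 1 of these symbols. This gave 20 probe sets for all 10 genes, of 19775 genes with a probe set of their own on the array. Probe set names ending in _s_at or _x_at belong to sets that can match more than 1 transcript. RNA came from HCT116, an established human colon cancer line, which went without serum for 24 h before 72 h of 1% oxygen (hypoxia, 2 arrays) or of 21% oxygen (normoxia, 2 arrays). Both groups were serum starved, and each holds an array labelled exp A and an array labelled exp B. Whether these letters stand for separate cultures is not in the labels, so the spread between them may be technical, and the number of arrays limits the precision.

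DNMT1 copies methylation onto newly made DNA strands after replication, and UHRF1 brings it there by binding hemimethylated DNA. DNMT3A and DNMT3B place methyl groups on DNA that had none, and the TET enzymes oxidise 5-methylcytosine in a reaction that uses molecular oxygen and 2-oxoglutarate. EZH2 methylates lysine 27 of histone H3 within PRC2, of which EED and SUZ12 are also subunits. HCT116 cells are a standard model for DNA methylation, because lines with a disrupted DNMT1 or DNMT3B gene have been made from them.

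Values are MAS5 signals on a linear scale, and each difference is the hypoxia mean less the normoxia mean of log2(signal + 23.7), a scale that understates changes of dim probe sets. Each array had a trimmed mean of 499.9, so directions are relative to the other probe sets, whose median log2 difference was -0.0012 over those tested. Low signals differed between the groups: the highest of 27 Bacillus control probe sets stood at 305 and 226 on the hypoxia arrays, against 45.7 and 121 on the normoxia arrays. All 5 hypoxia check genes with a probe set of their own were called higher. Their summed signal was 126141 and 93256 in hypoxia, against 17953 and 14023 in normoxia. The summed signal of 6 colon epithelial markers was 75290.5 to 78946 in hypoxia and 54993 to 66085 in normoxia. Of that list 2 markers were called higher and 0 lower, and 4 markers had no signal below 4912.9 on any array. The other two, named here after their values were seen, were VIL1, with 181 and 55.8 in hypoxia against 49.9 and 169 in normoxia, and CDX2, with 23.0 and 106.8 in hypoxia against 210.04 and 217 in normoxia, and neither was called. The summed signal of 3 leukocyte markers was 111 to 128 in hypoxia and 70.1 to 233 in normoxia, that of 3 fibroblast markers 455 to 468 in hypoxia and 129 to 485 in normoxia, and that of 3 endothelial markers 269.99 to 303 in hypoxia and 89.1 to 215 in normoxia.

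In hypoxia DNMT1, UHRF1 and EED fell, each to about 45.5% to 54.9% of its normoxia mean. No probe set of the other 7 genes was called in either direction, and those of TET1 and DNMT3A were dim and mostly uneven between arrays. A probe set was tested where its mean over the 4 arrays reached 97.4, the median over probe sets, and 14 of the 20 passed, at least 1 for each gene. Passing depends on the values of both groups, so the 14 are not a sample of the 20. With limma and Benjamini-Hochberg adjustment over 23178 probe sets, 3 of the 14 were called lower, where 18.3% of all tested probe sets were, and 0 were called higher, where 14.1% were (32.4% in either direction). The same 3 were the only ones with an unadjusted p under 0.05. These shares lie near the background, so the count says nothing particular about the 10 genes. The hypoxia values lay wholly below the normoxia values in 3 of the 14 and wholly above in 4, where 35.0% and 34.4% of all tested probe sets did so (69.4% either way). Among those wholly above was TET1 on 214862_x_at, which passed the filter only through its hypoxia mean. TET1 on 228906_at and DNMT3A on 244428_at, with normoxia means of 92.7 and 97.2, also passed only through their hypoxia means. A difference was thus built into the testing of these probe sets. The lowest mean signal inside the filter was 124 (TET1) and the highest outside it 92.1 (DNMT3A).

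**Figure D1:**
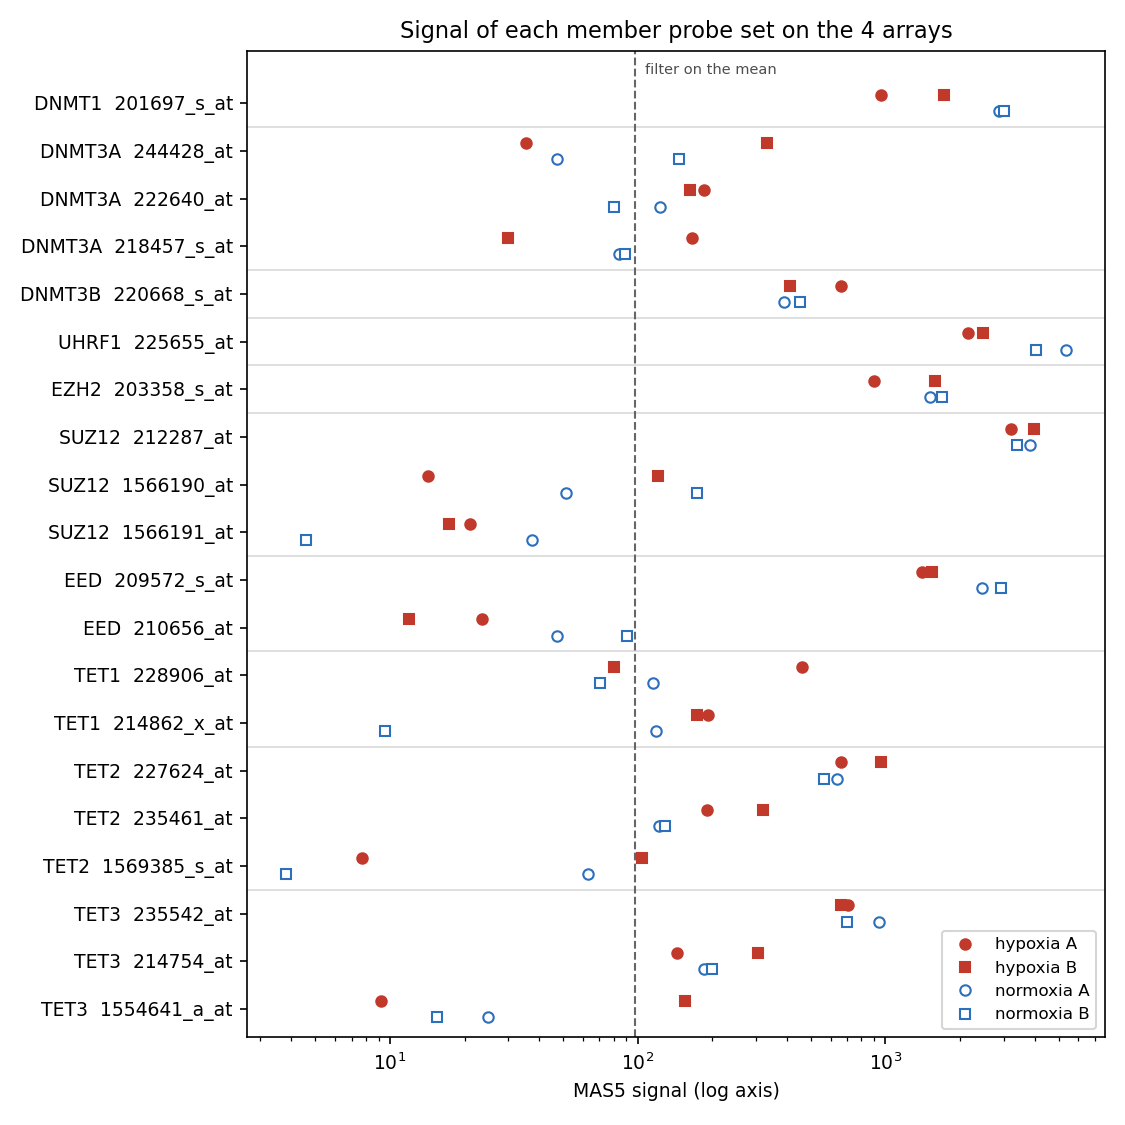
MAS5 signal (log axis) of the 20 member probe sets, with hypoxia as filled and normoxia as open symbols, circles for exp A and squares for exp B, and a dashed line at the filter of 97.4 on the mean. DNMT1, UHRF1 and EED (209572_s_at) have both hypoxia arrays left of both normoxia arrays. Several dim probe sets, such as 244428_at of DNMT3A, 228906_at of TET1 and 1569385_s_at of TET2, scatter widely.

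DNMT1, the maintenance methyltransferase gene, had signals of 957 and 1719.7 on the A and B arrays of hypoxia, against 2884 and 2998 on those of normoxia. Both hypoxia arrays lay below both normoxia arrays, and the 2 hypoxia arrays differed far more from each other than the normoxia arrays did. The mean was 1339 ± 539 in hypoxia and 2941 ± 80.3 in normoxia (SD, n = 2 each). The log2 difference was -1.18 ± 0.26 SE (limma adjusted p = 0.00891). Within exp A it was -1.57 and within exp B -0.79, and it was -0.77 without hypoxia A, where the call held (adjusted p = 0.00245).

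UHRF1, whose product recruits DNMT1 to replicating DNA, had signals of 2161 and 2479 in hypoxia, against 5342 and 4069 in normoxia. The groups did not overlap, and here the normoxia arrays were the more uneven. UHRF1 averaged 2319.8 ± 225 in hypoxia and 4706 ± 900.4 in normoxia (SD, n = 2 each), a log2 difference of -1.003 ± 0.19 SE (limma adjusted p = 0.00440). Without normoxia A the difference was -0.81 and missed the threshold (adjusted p = 0.0904). With no intensity trend in the variance model none of DNMT1, UHRF1 and EED was called, with adjusted p = 0.0898, 0.0691 and 0.0765.

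Promoter windows of the genes that fell are shown with a window of EZH2, a gene often expressed with them in dividing cells, to set their letters side by side. For UHRF1 and EZH2 only windows with a match are printed. Each window runs from 250 bases before to 50 bases after a RefSeq gene start in GRCh38.p14, and all 10 genes had at least 1 window, 22 in all. Capitals mark E2F-type letters, searched as TTTCGCGC, TTTGGCGC, TTTCCCGC and TTTGCCGC on both strands. The windows are DNMT1 at chr19:10194904-10195203 on the minus strand, UHRF1 at chr19:4909251-4909550 and chr19:4909894-4910193 on the plus strand, EZH2 at chr7:148884242-148884541 on the minus strand and EED at chr11:86244503-86244802 on the plus strand.
DNMT1: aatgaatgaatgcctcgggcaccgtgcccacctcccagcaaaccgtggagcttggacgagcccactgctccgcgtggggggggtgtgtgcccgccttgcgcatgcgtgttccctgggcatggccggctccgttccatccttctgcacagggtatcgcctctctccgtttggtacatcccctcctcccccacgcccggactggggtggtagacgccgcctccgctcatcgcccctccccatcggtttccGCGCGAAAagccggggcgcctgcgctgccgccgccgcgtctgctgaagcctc
UHRF1 first window: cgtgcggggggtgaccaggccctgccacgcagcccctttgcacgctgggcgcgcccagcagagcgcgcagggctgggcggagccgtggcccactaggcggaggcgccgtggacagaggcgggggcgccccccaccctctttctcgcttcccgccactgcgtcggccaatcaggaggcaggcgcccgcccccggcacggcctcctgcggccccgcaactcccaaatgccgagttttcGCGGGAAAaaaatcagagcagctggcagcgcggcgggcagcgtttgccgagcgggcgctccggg
UHRF1 second window: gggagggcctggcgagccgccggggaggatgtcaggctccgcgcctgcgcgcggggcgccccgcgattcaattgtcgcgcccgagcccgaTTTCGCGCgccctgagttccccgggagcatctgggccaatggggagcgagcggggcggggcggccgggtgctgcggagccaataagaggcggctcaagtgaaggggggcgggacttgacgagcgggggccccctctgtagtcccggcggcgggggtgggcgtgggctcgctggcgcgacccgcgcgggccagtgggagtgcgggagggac
EZH2: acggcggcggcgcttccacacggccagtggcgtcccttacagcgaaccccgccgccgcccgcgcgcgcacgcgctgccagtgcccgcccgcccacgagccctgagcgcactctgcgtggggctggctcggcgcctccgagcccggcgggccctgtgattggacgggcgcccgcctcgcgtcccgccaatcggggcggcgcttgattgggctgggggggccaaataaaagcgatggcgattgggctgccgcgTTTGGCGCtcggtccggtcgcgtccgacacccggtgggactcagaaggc
EED: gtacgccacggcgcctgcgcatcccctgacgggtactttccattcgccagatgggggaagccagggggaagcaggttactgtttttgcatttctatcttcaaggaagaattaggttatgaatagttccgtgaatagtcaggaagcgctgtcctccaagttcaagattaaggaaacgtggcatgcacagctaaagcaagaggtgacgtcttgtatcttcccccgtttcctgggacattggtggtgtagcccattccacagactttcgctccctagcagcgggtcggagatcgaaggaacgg

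In the DNMT1 window the match is the reverse complement of TTTCGCGC and begins at -2, counted from 0 at the first base of the gene. The first UHRF1 window holds the reverse complement of TTTCCCGC at -14 and the second holds TTTCGCGC at -160, while a further UHRF1 window had none. EZH2 has TTTGGCGC at 1 in the window shown, while its other window had none. A window of SUZ12, which is not printed, has TTTCCCGC at -189. No window of EED, of the DNMT3 genes or of the TET genes held these letters. The letters therefore stand in genes that fell (DNMT1, UHRF1) and in genes that were not called (EZH2, SUZ12), and are missing from EED, which fell. They occurred in 5 of the 22 member windows and in 3.31% of 35116 windows of all genes. Counted by gene, at least 1 window held them in 4 of the 10 members, in 10 of 14 S phase genes with a window and in 3.99% of 27305 genes. The member windows had a median of 29 CpG dinucleotides, against 14 over all windows, and the letters searched contain CpG. The core letters of a hypoxia response element, ACGTG or GCGTG on either strand, were in 14 of the 22 member windows and in 48.4% of all windows. A match of letters is no evidence of binding, and these windows may not be the starts used in HCT116 cells.

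Of the 3 PRC2 genes among the members EED fell, while EZH2 and SUZ12 were not called, and the differences among the 3 were not tested. EED, whose product binds methylated H3K27 and stimulates EZH2, had signals of 1407 and 1545 in hypoxia, against 2453 and 2927 in normoxia on the probe set 209572_s_at. Both hypoxia arrays were low and close to each other, with no overlap. The mean was 1476 ± 97.0 in hypoxia and 2689.8 ± 336 in normoxia (SD, n = 2 each), a log2 difference of -0.85 ± 0.19 SE (limma adjusted p = 0.00847), with -0.79 within exp A and -0.91 within exp B. It was no longer called when normoxia A (-0.98, adjusted p = 0.0602) or normoxia B (-0.73, adjusted p = 0.196) was left out. The other EED probe set, 210656_at, was under the filter with signals of 23.6 and 11.9 in hypoxia, against 47.1 and 90.4 in normoxia. It too had both hypoxia values below both normoxia values, at levels under the Bacillus control maxima of most arrays.

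EZH2, the catalytic subunit gene, had signals of 902 and 1582 in hypoxia, against 1510.0 and 1684 in normoxia. Hypoxia A was low and hypoxia B lay between the normoxia arrays, so the groups overlapped. The log2 difference was -0.41 ± 0.27 SE (limma adjusted p = 0.277), with a 95% interval of -1.02 to 0.20. The value rests on 1 array: with hypoxia B left out it was -0.81 and called (adjusted p = 0.00463), and with hypoxia A left out it was -0.01 (adjusted p = 0.959). SUZ12, which holds the complex together, had signals of 3218 and 3971 in hypoxia, against 3817 and 3388 in normoxia on 212287_at. The groups overlapped, with a log2 difference of -0.01 ± 0.18 SE (limma adjusted p = 0.976) and a 95% interval of -0.42 to 0.40. The interval of SUZ12 was the narrowest of the 14, which bounds a change of its signal relative to other genes more tightly than for the other members. The sign for SUZ12 turned without hypoxia A (0.14), without normoxia A (0.08) and under scaling to the 75th percentile (0.14). Its other probe sets, 1566190_at and 1566191_at, were under the filter, with 14.2 to 121 in hypoxia and 51.5 to 173 in normoxia for the one and 17.4 to 20.9 in hypoxia and 4.60 to 37.3 in normoxia for the other. A further probe set is listed for SUZ12 together with its pseudogene SUZ12P1 and was not used.

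**Figure D2:**
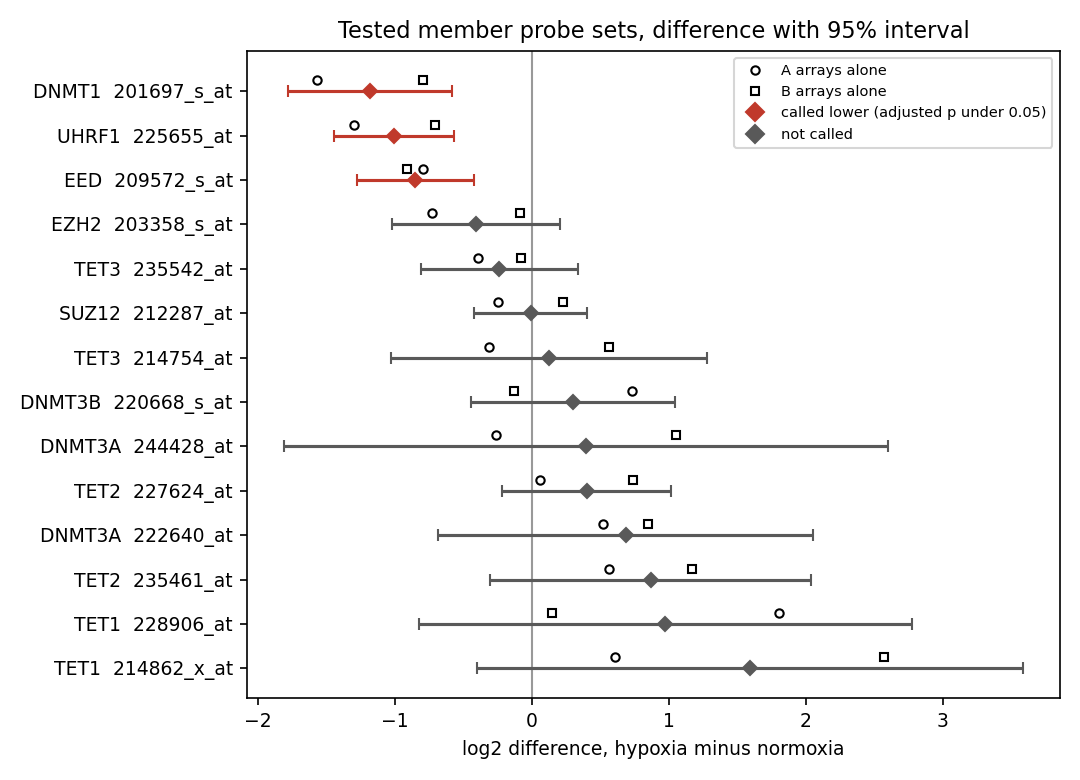
Log2 difference, hypoxia minus normoxia, of the 14 tested member probe sets (diamonds, with the 95% interval as bars) and the differences within exp A (circles) and exp B (squares). The intervals of DNMT1, UHRF1 and EED lie below 0, and each of the other 11 crosses 0, widest for TET1 and DNMT3A.

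The de novo methyltransferase genes DNMT3A and DNMT3B were not called. DNMT3B had signals of 664 and 410.1 in hypoxia, against 390.3 and 452 in normoxia. Hypoxia A was high while hypoxia B lay between the normoxia arrays, and the log2 difference of 0.30 ± 0.33 SE had a 95% interval of -0.45 to 1.045 (limma adjusted p = 0.515). It was -0.03 without hypoxia A. DNMT3A was dim, with signals on both sides of the highest Bacillus control signals of the arrays. The medians of those controls were lower, at 55.5 and 25.7 in hypoxia and 16.9 and 17.2 in normoxia. On 222640_at its signals were 185 and 163 in hypoxia, against 122 and 79.9 in normoxia. These did not overlap, but the log2 difference of 0.68 ± 0.60 SE missed the threshold (limma adjusted p = 0.416), and leaving out a normoxia array moved it to 0.93 (A) or 0.44 (B). On 244428_at they were 35.4 and 331 in hypoxia, against 47.1 and 147 in normoxia, where B exceeded A in both groups and the groups overlapped (log2 difference 0.40 ± 0.97 SE, adjusted p = 0.784). Without normoxia A that difference was -0.24. The DNMT3A probe set under the filter, 218457_s_at, had 165 and 30.0 in hypoxia, against 84.2 and 89.1 in normoxia, with overlap.

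Of the TET genes, TET2 and TET3 each had a probe set well above the Bacillus control maxima of all arrays and TET1 had none. TET2, a dioxygenase gene often mutated in blood cancers, had signals of 664 and 956 in hypoxia, against 635 and 564 in normoxia on 227624_at. Both hypoxia arrays were above both normoxia arrays, hypoxia A only narrowly, and the log2 difference of 0.40 ± 0.27 SE was not called (limma adjusted p = 0.290, 95% interval -0.22 to 1.01). It was 0.65 without hypoxia A, where it passed (adjusted p = 0.0286), and 0.14 without hypoxia B. The second TET2 probe set, 235461_at, had 190.4 and 320.1 in hypoxia, against 121 and 129 in normoxia. These values did not overlap either, with a log2 difference of 0.87 ± 0.52 SE (limma adjusted p = 0.230) that moved to 1.21 with hypoxia A left out and to 0.52 with hypoxia B left out. The last, 1569385_s_at, was under the filter, with 7.74 and 104 in hypoxia, against 62.9 and 3.82 in normoxia.

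TET3, the family member also known from the zygote, had signals of 706 and 662 in hypoxia, against 937 and 701 in normoxia on 235542_at. The groups overlapped slightly and the log2 difference was -0.24 ± 0.25 SE (limma adjusted p = 0.501, 95% interval -0.81 to 0.33), which was -0.44 without normoxia B and -0.04 without normoxia A. On 214754_at TET3 had 144 and 306 in hypoxia, against 185 and 199.8 in normoxia, with the normoxia arrays between the hypoxia arrays (log2 difference 0.12 ± 0.51 SE, adjusted p = 0.874). It was -0.36 without hypoxia B. The remaining TET3 probe set, 1554641_a_at, was under the filter, with 9.22 and 156 in hypoxia, against 24.95 and 15.5 in normoxia.

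TET1, the first dioxygenase of the family to be described, had signals of 461 and 80.0 in hypoxia, against 115 and 70.1 in normoxia on 228906_at. Only hypoxia A stood apart, and the log2 difference of 0.97 ± 0.79 SE was not called (limma adjusted p = 0.377, 95% interval -0.83 to 2.77). With hypoxia B left out it was 2.08, and without hypoxia A the probe set was under the filter. Its normoxia mean of 92.7 was also under the filter, so a difference was built into its being tested. On 214862_x_at TET1 had 193 and 174 in hypoxia, against 118 and 9.52 in normoxia. The groups did not overlap, but the log2 difference of 1.59 ± 0.88 SE missed the threshold (limma adjusted p = 0.197), ranging from 0.54 without normoxia B to 2.64 without normoxia A. The Bacillus control maxima of 305 and 226 in hypoxia, against 45.7 and 121 in normoxia, exceeded each of these 4 values except that of normoxia A, and their part in the result was not tested.

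Other scalings of the arrays moved the differences of most probe sets in common. Scaled to the hybridization controls (BioB, BioC, BioD and Cre), whose geometric mean signal was 9869 and 8594 in hypoxia and 2444 and 4595 in normoxia, the median of all tested probe sets moved to -1.42, and the split of all calls moved to 9483 lower and 90 higher, against 4248 lower and 3263 higher as reported. Scaled to the 75th percentile the median moved to 0.15. Relative to the median under each scaling, DNMT1 lay at -1.19 under the hybridization controls, at -1.18 under the 75th percentile and at -1.05 under quantile normalization. The same 3 values were -1.02, -1.003 and -0.97 for UHRF1 and -0.87, -0.85 and -0.72 for EED. With that median not subtracted, EZH2 (-1.84, adjusted p = 0.0279) and TET3 on 235542_at (-1.65, adjusted p = 0.0471) were also called lower under the hybridization controls, which made 5 of 16 tested member probe sets lower and 0 higher.

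**Figure D3:**
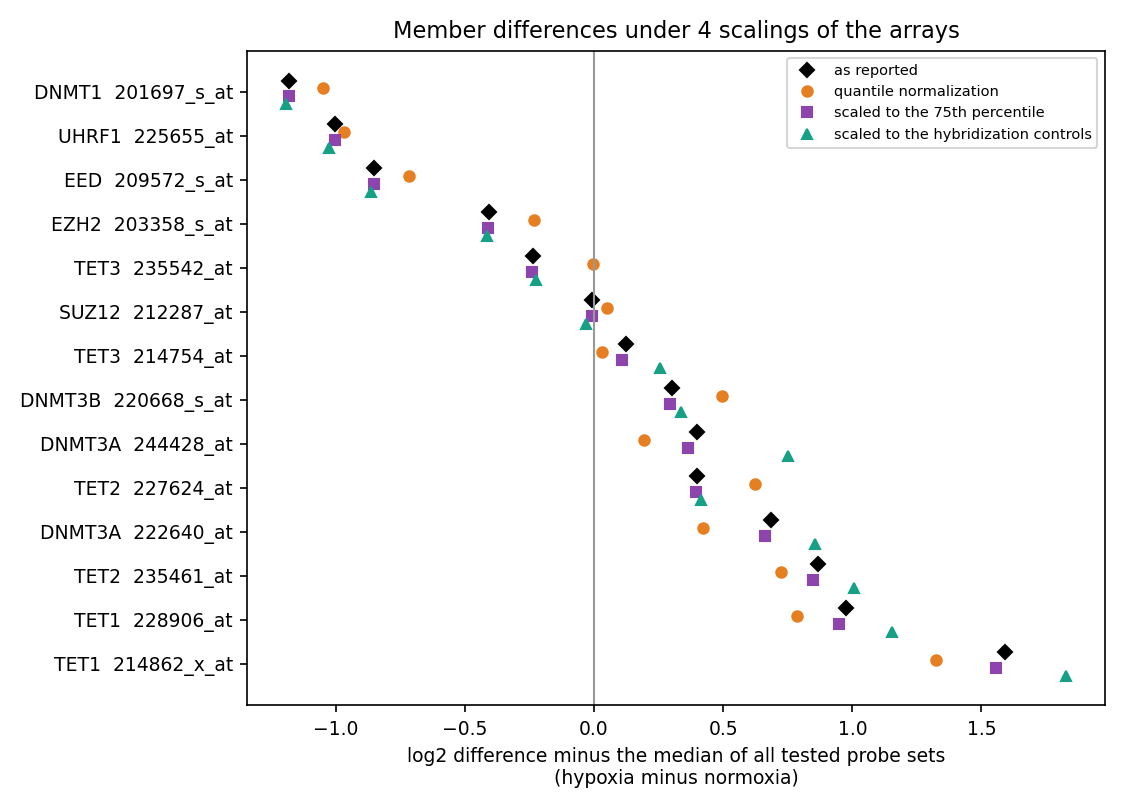
Log2 difference, hypoxia minus normoxia, of the 14 tested member probe sets minus the median of all tested probe sets, under 4 scalings of the arrays. DNMT1, UHRF1 and EED stay below the median under each of the 4, from -1.19 to -0.72, and SUZ12 lies between -0.03 and 0.05.

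The related genes are counted by the brightest probe set of each gene. By that measure 21.9% of 12636 tested genes were called lower and 14.7% higher, and their median log2 difference was -0.03. Some list genes not called by that measure had another tested probe set that was called. The list medians were -0.85 for partners of DNA methylation, -0.12 for methyl-CpG readers, 0.04 for demethylation genes and TET regulators, -0.74 for methyl donor and 2-oxoglutarate enzymes, -0.20 for other PRC2 subunits, -0.10 for PRC1 subunits and 0.54 for genes that oppose Polycomb marks, against -0.12 for the 10 genes themselves. Of the 29 called list genes named here, 17 were no longer called with no intensity trend, with adjusted p of 0.0537 to 0.178: CDCA7, PCNA, UHRF2, ZBTB33, SMUG1, APEX1, MTR, MAT2B, MTRR, JARID2, RBBP4, CBX7, CBX6, KDM6A, CCNE2, MCM5 and GATA4. Scaled to the hybridization controls, each of the 11 named genes called higher lost its call. Among partners of DNA methylation, 3 of 6 tested genes fell and 1 rose. HELLS, a chromatin remodeller needed for DNA methylation, fell to 345 ± 99.7 in hypoxia, against 1806 ± 253 in normoxia (log2 difference -2.33 ± 0.27 SE, limma adjusted p = 4.26e-04), and its 3 other tested probe sets were also called lower. CDCA7, the partner of HELLS, had a log2 difference of -2.24 (-1.37 without hypoxia B), with a second probe set of opposite sign that was not called. PCNA, the replication clamp, had one of -0.83. UHRF2, the paralogue of UHRF1, went the other way from UHRF1, with 3332 and 4267 in hypoxia, against 2186 and 2480 in normoxia (log2 difference 0.69 ± 0.19 SE, limma adjusted p = 0.0224), though it was -0.76 when scaled to the hybridization controls. Leaving out normoxia A (adjusted p = 0.219) or normoxia B (adjusted p = 0.100) ended that call.

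S phase genes fell in 16 of 17 cases, with a median log2 difference of -2.11, and the gene not called was E2F1, named here after its values were seen. Their summed signal was 12149 to 15102 in hypoxia, against 58466 to 63262 in normoxia. CCNE2, an S phase cyclin gene, had a log2 difference of -3.81 (-2.26 without hypoxia B), MCM5 and MCM4 of the replicative helicase had -3.21 (-1.97 without hypoxia B) and -2.86, and the ribonucleotide reductase gene RRM2 had -3.12. The declines of DNMT1, UHRF1 and EED were thus smaller than the median of this list. The part of S phase genes in the lower DNMT1 and UHRF1 signals was not tested, and fewer cells in S phase and less RNA per cell cannot be told apart in bulk RNA.

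**Figure D4:**
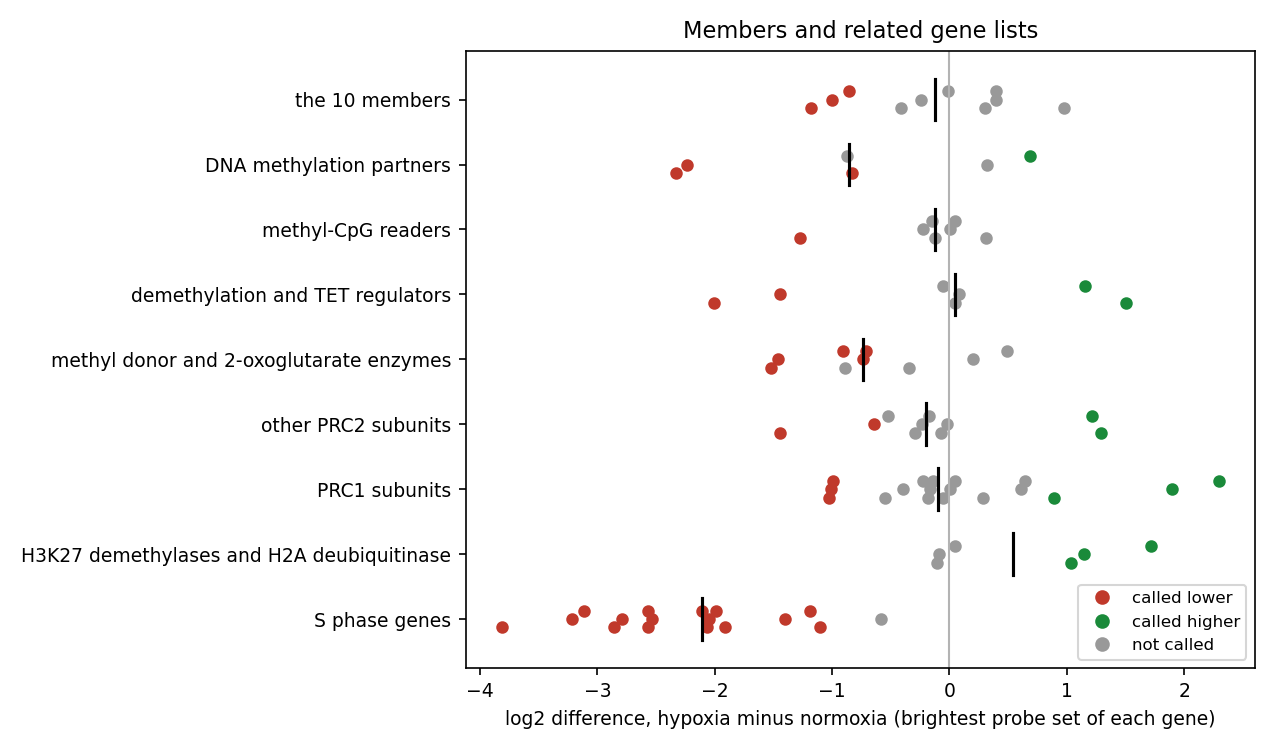
Log2 difference, hypoxia minus normoxia, of the brightest probe set of each tested gene, for the 10 members and 8 related lists, with a bar at each list's median. S phase genes lie furthest to the left, with a median of -2.11. The list of H3K27 demethylases and H2A deubiquitinase, the genes that oppose Polycomb marks, has its median at 0.54. Its demethylase genes are KDM6A and KDM6B, the rest are partners of the deubiquitinase BAP1, and no probe set is listed for BAP1 alone.

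Of 7 tested methyl-CpG readers 1 fell and 0 rose in limma, with 1 lower and 0 higher at an unadjusted p under 0.05. Among those not called, named here after their values were seen, MBD1 and MBD4 each had another probe set called lower and ZBTB38 had another called higher. The gene that fell was ZBTB33, which encodes Kaiso, with a log2 difference of -1.27 (limma adjusted p = 0.0390), and it was -0.51 without hypoxia B. Leaving out normoxia B (adjusted p = 0.0811), quantile normalization (adjusted p = 0.0679) and the 75th percentile (adjusted p = 0.0576) each ended the call, and its second probe set had the opposite sign. Of 7 genes that complete demethylation or regulate TET proteins, 2 fell and 2 rose. OGT, the O-GlcNAc transferase that binds TET proteins, rose to 6760 ± 957 in hypoxia, against 2348 ± 58.6 in normoxia (log2 difference 1.51 ± 0.18 SE, limma adjusted p = 4.17e-04), but was at 0.06 when scaled to the hybridization controls (adjusted p = 0.945), and CXXC5 had a log2 difference of 1.15, which turned to -0.29 when scaled to the hybridization controls. The base excision repair genes SMUG1 and APEX1 had log2 differences of -2.00 and -1.44. SMUG1 was not called with normoxia B left out (adjusted p = 0.103) and was at -1.07 without hypoxia B, and APEX1 was at -0.96 without hypoxia B.

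Enzymes that supply the methyl donor S-adenosylmethionine or make or use 2-oxoglutarate fell in 5 of 9 cases in limma, with 0 called higher (1 at an unadjusted p under 0.05). MAT2A, which makes S-adenosylmethionine, fell to 1864.5 ± 259 in hypoxia, against 5135 ± 7.15 in normoxia (log2 difference -1.46 ± 0.18 SE, limma adjusted p = 5.18e-04). MAT2B, its regulatory subunit gene, had a log2 difference of -0.91. MTR and MTRR, which remake methionine, had -1.52 and -0.74. MTR was not called with normoxia A left out (adjusted p = 0.0541) and was at -0.95 without hypoxia B. MTRR was not called with either normoxia array left out (adjusted p = 0.178 for A and 0.339 for B), nor under quantile normalization (adjusted p = 0.0935) or the 75th percentile (adjusted p = 0.0726).

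Beyond EZH2, SUZ12 and EED, PRC2 subunits went both ways, with 2 of 10 lower and 2 higher. RBBP7, a histone-binding subunit gene, fell to 2224 ± 219 in hypoxia, against 6069 ± 296 in normoxia (log2 difference -1.44 ± 0.17 SE, limma adjusted p = 4.46e-04). RBBP4, its paralogue, had -0.64, which ended as a call with normoxia B left out (adjusted p = 0.0648) or scaled to the 75th percentile (adjusted p = 0.0515), and 4 of its 5 other tested probe sets had the opposite sign. The accessory genes JARID2 and PHF1 rose, with log2 differences of 1.29 and 1.21, which turned to -0.15 and -0.23 when scaled to the hybridization controls. JARID2 had 2471 and 3898 in hypoxia, against 1224 and 1279 in normoxia, and its second probe set was also called higher.

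Of 18 tested PRC1 genes 3 fell and 3 rose. RYBP, a subunit of variant PRC1, rose to 13165 ± 3011 in hypoxia, against 2626 ± 24.0 in normoxia (log2 difference 2.30 ± 0.19 SE, limma adjusted p = 1.15e-04), and both its other tested probe sets were called higher. Scaled to the hybridization controls RYBP was at 0.84 (adjusted p = 0.250) and PCGF5 at 0.45 (adjusted p = 0.576). PCGF5, which defines a form of variant PRC1, rose to 7508 ± 384 in hypoxia, against 2002 ± 261 in normoxia (log2 difference 1.90 ± 0.17 SE, limma adjusted p = 1.58e-04). Of its 3 other tested probe sets 1 was called higher and 1 had the opposite sign. The chromobox genes CBX7 and CBX6, whose products read methylated H3K27, had log2 differences of -1.03 and -1.01. Neither was called with 1 normoxia array left out (adjusted p = 0.138 and 0.282 for CBX7 and 0.0632 and 0.0941 for CBX6, leaving out A and B). CBX7 was also not called under quantile normalization (adjusted p = 0.0543), under the 75th percentile (adjusted p = 0.0540) or with no filter (adjusted p = 0.0529).

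Of 6 tested genes that oppose Polycomb marks 3 rose and 0 fell in limma, with the same counts of 3 and 0 at an unadjusted p under 0.05. Of the other tested probe sets, 1 of 2 for KDM6A, 1 of 4 for KDM6B and 2 of 6 for FOXK2 were called higher, and none had the opposite sign. ASXL1 and FOXK1, named here after their values were seen, were not called, but each had another probe set called higher. KDM6A and KDM6B, whose products remove methyl groups from H3K27 in an oxygen-dependent reaction, had log2 differences of 1.15 and 1.03, which turned to -0.28 and -0.40 when scaled to the hybridization controls. KDM6B had 1602 and 1542 in hypoxia, against 749 and 764 in normoxia. Leaving out normoxia B ended both calls (adjusted p = 0.0902 for KDM6A and 0.0749 for KDM6B), and leaving out normoxia A ended that of KDM6B (adjusted p = 0.0765). FOXK2, a partner of the BAP1 deubiquitinase, had 1.72, and 0.27 when scaled to the hybridization controls (adjusted p = 0.750).

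Genes known to be kept silent by these marks were mostly under the filter. Of 10 germline genes silenced by DNA methylation in somatic cells 7 were under it, and of the 3 tested 0 were called by limma, with 0 at an unadjusted p under 0.05. SYCP3, a meiotic chromosome gene, had 157 and 182 in hypoxia, against 26.4 and 34.0 in normoxia (log2 difference 1.84 ± 0.83 SE, limma adjusted p = 0.118), and was called with no intensity trend (adjusted p = 0.0301), a setting that ended the call of GATA4 (adjusted p = 0.0580). MAGEB2, an X-linked cancer-testis gene, was bright, with 6388 and 8380 in hypoxia, against 9224 and 10057 in normoxia (log2 difference -0.40, adjusted p = 0.133). It was called lower under quantile normalization (-0.58, adjusted p = 0.0234), scaled to the hybridization controls (-1.85, adjusted p = 0.00618) and without hypoxia B (-0.59, adjusted p = 0.0225), and was at -0.20 without hypoxia A. Of 12 Polycomb target developmental genes with a probe set of their own 7 were under the filter and 1 of the 5 tested was called, GATA4. GATA4 had 183 and 447 in hypoxia, against 18.0 and 57.3 in normoxia (log2 difference 2.42 ± 0.75 SE, limma adjusted p = 0.0364), and leaving out normoxia A (adjusted p = 0.123) or normoxia B (adjusted p = 0.0526) ended that call. It was also not called with a pseudocount of 1 (adjusted p = 0.0524), under quantile normalization (adjusted p = 0.0512), with no filter (adjusted p = 0.0756) or scaled to the hybridization controls (adjusted p = 0.200). SYCP3 (mean 169.7 in hypoxia, against 30.2 in normoxia) and GATA4 (mean 315 in hypoxia, against 37.6 in normoxia) passed the filter through their hypoxia arrays alone, so a difference was built into their being tested. The hypoxia signals of SYCP3 and that of GATA4 on hypoxia A were below the Bacillus maxima of those arrays, while GATA4 on hypoxia B was above its array's maximum of 226, and the part of the low-signal difference was not tested.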

How the data were processed

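Total RNA of HCT116 cells (6 µg per array, per the labels' protocols) was copied into biotin-labelled cRNA and hybridized to Affymetrix arrays, 1 per sample. The deposited values are linear intensities, for which the submitters' processing notes name MAS5, its version not given in the sources used here. Detection calls were not used here. Of 54675 probe sets, 41091 were listed for 1 gene, 1801 for several and 11721 for none, and 62 were controls. Gene names came from the platform annotation, which can be old.

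Values went to log2 after adding 23.7, their own 25th percentile. Probe sets of 1 gene with a mean at or above 97.4 (23178) were fitted with limma 3.58.1 (lmFit, then eBayes with an intensity trend) in R 4.3.3, over the 2 hypoxia and 2 normoxia arrays with no covariate. A call is an adjusted p under 0.05, two-sided, by the Benjamini-Hochberg method over all of them. The 10 genes and the lists were chosen with earlier results of these data known. All member probe sets are named, with up to 4 called genes of each list with the largest absolute differences or, in a list with no call, the 2 of smallest p, each by its brightest probe set. Alternatives were the pseudocount, scaling, filter, variance model, threshold, a replicate block and leaving out each array. The fitting code was tested on simulated data. The labels do not say that exp A and exp B pair the arrays, and the deviations of same-lettered arrays correlated at 0.06.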

Additional observations from a re-analysis of the deposited data

How the results depend on the processing

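Calls of 4248 probe sets lower and 3263 higher moved with the following choices. Leaving out 1 array gave 2072 to 6136 lower and 1961 to 4286 higher, with 1 to 4 member probe sets lower and 0 to 1 higher. The hybridization controls gave 9483 lower and 90 higher, with 5 member probe sets lower. With no intensity trend there were 2218 lower and 1744 higher, with 0 members lower. An adjusted p under 0.01 gave 2458 lower and 1852 higher, and 1 probe set per gene gave 2876 lower and 1927 higher. With the replicate letter as a block 5123 were lower and 3819 higher, with 3 member probe sets lower and 0 higher, and since nothing states that the letters pair the arrays this adds no support. The sign turned under the hybridization controls for DNMT3A (-0.67 on 244428_at and -0.57 on 222640_at), DNMT3B (-1.09), TET1 on 228906_at (-0.27), TET2 (-1.01 on 227624_at and -0.42 on 235461_at), TET3 on 214754_at (-1.17), UHRF2 (-0.76), CXXC5 (-0.29), JARID2 (-0.15), PHF1 (-0.23), KDM6A (-0.28) and KDM6B (-0.40). It also turned for TET3 on 214754_at under quantile normalization (-0.0217) and for SUZ12 under the 75th percentile (0.14). Leaving out 1 array turned the sign of 4 member probe sets, whose differences ranged from -0.36 to 0.61 for TET3 on 214754_at (lowest without hypoxia B), from -0.16 to 0.14 for SUZ12, from -0.0324 to 0.63 for DNMT3B (lowest without hypoxia A) and from -0.24 to 1.69 for DNMT3A on 244428_at (lowest without normoxia A). The causes were not tested. With 2 arrays per group, and dim signals near the highest of the Bacillus controls, differences of TET1, DNMT3A and the second probe sets of TET2 and TET3 were not resolved.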
